A study of Mus musculus with 8 samples.

Results

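The Rab genes, which encode the small GTPases that direct vesicle traffic, were examined in dendritic cells sorted from mouse thymus. The members were all array probes whose target accession maps to a mouse symbol made of Rab, a number and an optional letter, so that effectors named after a Rab protein, such as Rab3il1, were left out. The rule found 80 of 55681 probes, which represent 57 Rab genes. In at least 1 group 51 of these genes exceeded background on both arrays, so they were tested, among 24152 genes or accessions in all, and 42 were above background on all 8 arrays.

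RNA was hybridised to 8 Agilent arrays of 1 colour on 1 slide, with 2 arrays in each of 4 groups. The groups were mature Sirpa-positive, immature Sirpa-positive, mature Sirpa-negative and immature Sirpa-negative dendritic cells. Sirpa is an inhibitory surface receptor that separates the conventional dendritic cells of the thymus into subsets. Strain, age, treatment and the other sort markers are not in the labels. Nor is it stated if a group's 2 arrays represent different mice or cell sorts, and p-values therefore cover no more than the spread between arrays, part of which may be technical. Single arrays are called by the number in their title.

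Rab proteins are molecular switches of the Ras superfamily. Exchange factors load them with GTP, which lets them recruit effectors such as tethers, motors and coat adaptors to a membrane, and GTPase-activating proteins end that state. Different Rab proteins mark different compartments, from the Golgi through early, recycling and late endosomes to lysosomes and secretory granules. In dendritic cells this traffic carries engulfed antigen to the compartments where MHC molecules are loaded and takes the loaded molecules to the cell surface, and maturation is known to change uptake and surface display.

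The sorted cells carried the markers of their labels. All 5 dendritic cell markers (Itgax, Flt3, Zbtb46, H2-Aa and Cd74) were above background on all 8 arrays, and the 5 maturation markers (Ccr7, Cd40, Fscn1, Ccl22 and Relb) were higher in the mature cells of both subsets. Of Sirpa, Irf4, Clec10a, Cd209a and Cd4, listed for Sirpa-positive cells, 4 were higher in mature and 5 in immature Sirpa-positive than Sirpa-negative cells. Of Xcr1, Clec9a, Irf8, Batf3 and Cadm1, listed for Sirpa-negative cells, 4 were lower in mature and 5 in immature Sirpa-positive cells. With maturation of Sirpa-negative cells, 2 of the first list rose and 2 fell. Sirpa itself lay between 3.95 and 4.68 on the Sirpa-positive arrays. On the Sirpa-negative arrays it had -0.52 and -0.90 in mature and -2.24 and -2.19 in immature cells. These values, like all levels given here, are log2 signals relative to the array's own 75th percentile, and the level of a probe is compared only with the same probe on other arrays. Between 52.9% and 65.5% of the spots were well above background on an array.

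The Rab genes differed widely in how much they varied between groups. Over the 4 groups the difference between the highest and the lowest group mean had a median of 0.86 on the log2 scale across the 51 genes. It was under 0.5 in 13 genes, at least 1 in 24 and at least 2 in 14. The steadiest was Rab5c, an early endosome Rab, with a difference of 0.15, followed by Rab2a, which acts between the endoplasmic reticulum and the Golgi, with 0.22 and Rab5a, the early endosome fusion Rab, with 0.29. The most variable were Rab26 with 4.79, Rab39 with 4.59 and Rab20 with 4.46. In all, 24 genes passed the test (adjusted p below 0.05) in at least 1 of the 4 comparisons of groups, and 27 passed in none. Neither these counts nor the counts by size of difference were made over all genes, so they describe the Rab genes alone.

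**Figure D1:**
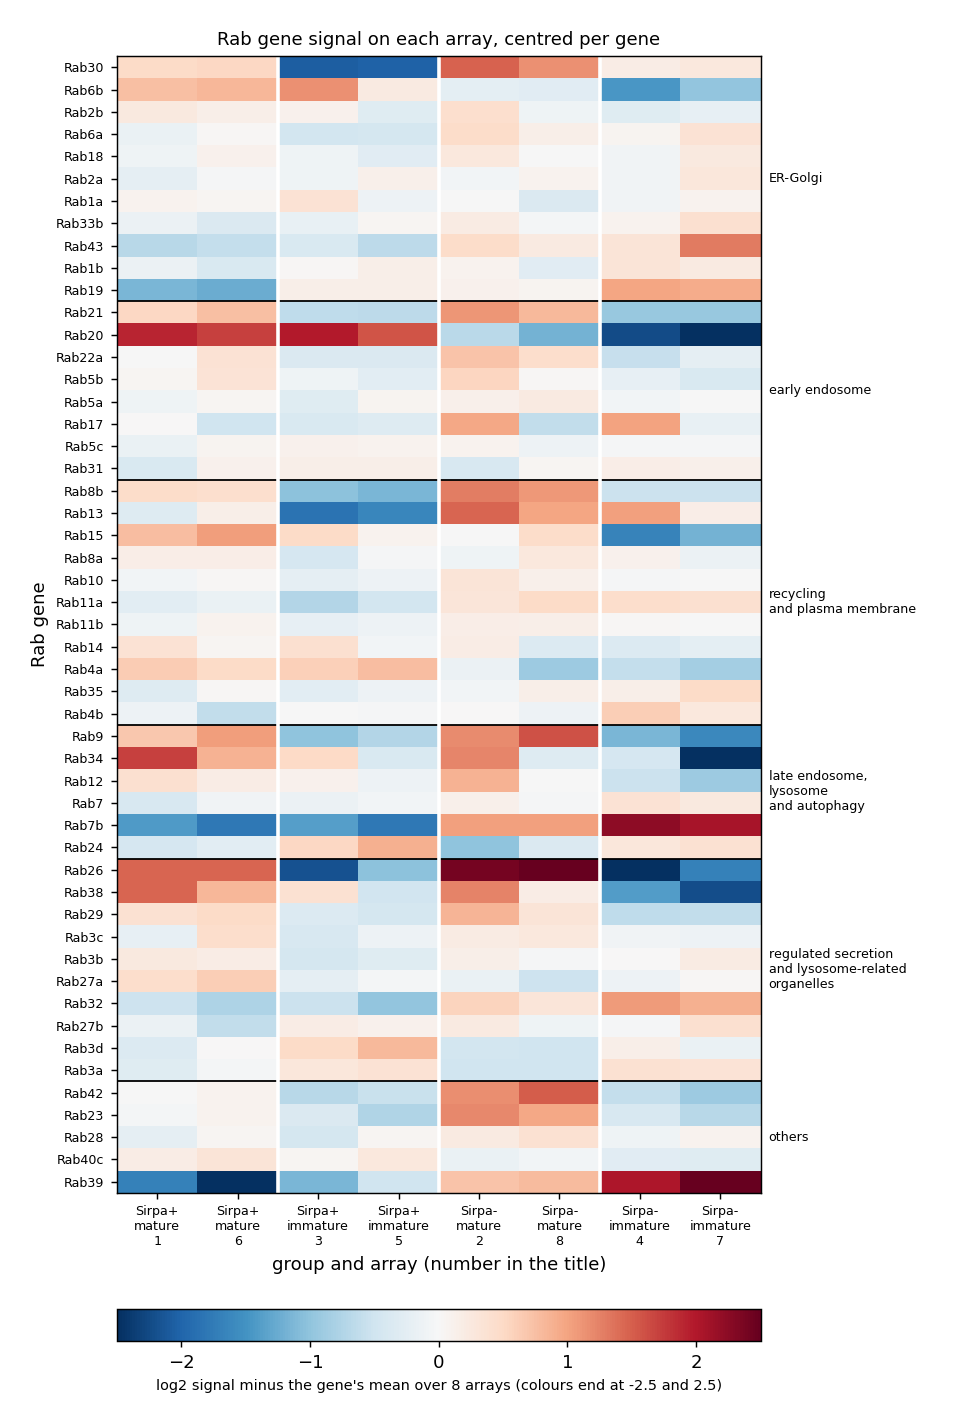
Signal of the 51 tested Rab genes (1 line each, ordered by role and then by the mean difference between mature and immature cells) on the 8 arrays, as log2 signal minus the gene's mean over the arrays, with red above and blue below that mean. Rab26, Rab9, Rab8b and Rab21 are red on the mature and blue on the immature arrays of both subsets, Rab20 is red on the Sirpa-positive arrays, Rab7b and Rab39 are red on the Sirpa-negative arrays, and most other lines are pale.

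Maturation was accompanied by higher signal of a set of Rab genes in both subsets. In Sirpa-positive cells 6 of 51 Rab genes (11.8%) were higher in mature cells, where 4.35% of all genes tested were, and 1 (1.96%) was lower, where 2.53% were, which makes 7 in all (13.7%) beside 6.89% of all genes. In Sirpa-negative cells 13 Rab genes (25.5%) were higher, where 9.22% of all genes were, and 5 (9.8%) were lower, where 7.24% were, which makes 18 in all (35.3%) beside 16.5% of all genes. Among the 13869 tested genes with a symbol the shares were 5.57% higher and 3.42% lower in Sirpa-positive cells and 11.4% higher and 9.62% lower in Sirpa-negative cells. The median difference of the 51 Rab genes was 0.12 in Sirpa-positive and 0.15 in Sirpa-negative cells, against 0.03 and -0.01 over all genes. Rab9, Rab8b, Rab21, Rab26 and Rab30 were higher in both subsets (83.3% of the first list and 38.5% of the second), and Rab19 was lower in both (100% and 20%). The overlap of the 2 lists was not counted over all genes, so these shares describe the Rab genes alone.

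Rab9, which returns cargo such as mannose 6-phosphate receptors from late endosomes to the trans-Golgi network, was among the late endosome genes that rose. Its signal was 2.94 and 3.31 in mature against 1.25 and 1.52 in immature Sirpa-positive cells, and 3.43 and 3.85 in mature against 1.11 and 0.65 in immature Sirpa-negative cells. All 4 mature arrays lay above all 4 immature ones. The difference was 1.74 ± 0.27 in Sirpa-positive cells (log2, SE, 3.34-fold, limma adjusted p = 0.0128) and 2.76 ± 0.27 in Sirpa-negative cells (6.78-fold, adjusted p = 0.00122), and all 3 probes of the gene passed in both subsets.

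Rab8b, a close relative of Rab8a that carries Golgi and recycling cargo to the plasma membrane, was similarly separated by maturation. Mature Sirpa-positive cells had 4.67 and 4.65 and immature ones 3.19 and 3.08, while mature Sirpa-negative cells had 5.50 and 5.29 and immature ones 3.68 on both arrays. No mature array overlapped an immature one. The difference was 1.52 ± 0.19 in Sirpa-positive (2.88-fold, adjusted p = 0.00598) and 1.72 ± 0.19 in Sirpa-negative cells (3.30-fold, adjusted p = 0.00182). Rab8a, by contrast, did not pass in any comparison, with group means of 4.72 and 4.32 in mature and immature Sirpa-positive cells and of 4.63 and 4.53 in mature and immature Sirpa-negative cells.

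The upstream regions of Rab8b and Rab9 are shown because these genes rose together with maturation in both subsets, with 2 probes of Rab8b and 3 of Rab9. Each sequence is the 250 bases before the transcription start in RefSeq (GRCm38.p6), 5′ to 3′ along the gene's strand, which is the minus strand in both cases. Rab8b lies at chr9:66919706-66919955 and Rab9 at chrX:166479868-166480117. Capitals mark matches to the GC box, GGGCGG on either strand.
Rab8b: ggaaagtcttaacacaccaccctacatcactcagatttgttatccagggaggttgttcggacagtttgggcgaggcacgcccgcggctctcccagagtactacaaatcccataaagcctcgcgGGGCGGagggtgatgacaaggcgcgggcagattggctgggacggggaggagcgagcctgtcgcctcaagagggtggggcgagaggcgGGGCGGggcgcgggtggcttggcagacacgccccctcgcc
Rab9: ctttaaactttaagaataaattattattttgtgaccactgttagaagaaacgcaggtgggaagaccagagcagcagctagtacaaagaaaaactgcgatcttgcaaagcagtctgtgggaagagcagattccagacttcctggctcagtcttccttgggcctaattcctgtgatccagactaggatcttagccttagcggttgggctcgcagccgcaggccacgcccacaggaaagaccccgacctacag
The Rab8b window holds 2 GC boxes and has 64.4% G and C, while the Rab9 window holds none (0) and has 48.8%. RefSeq windows were matched for 48 Rab genes, 60 windows in all. A GC box was found in 66.67% of them, against 32.74% of 32851 windows of this length in the table, beside a median G and C content of 60.2% in the Rab windows and 52.4% in all windows. The NF-kB consensus, searched on both strands, was found in 3 Rab windows (5%) and in 7.25% of all windows. A match describes the letters of a window and does not show a binding site.

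Rab21, an early endosome Rab that binds integrin tails and guides their recycling, rose in both subsets. Its signal was 3.34 and 3.56 in mature against 2.19 and 2.15 in immature Sirpa-positive cells, and 3.92 and 3.62 in mature against 1.87 on both immature Sirpa-negative arrays. The groups did not overlap. The differences were 1.28 ± 0.20 in Sirpa-positive (adjusted p = 0.0139) and 1.90 ± 0.20 in Sirpa-negative cells (adjusted p = 0.00169).

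Rab26, which marks secretory granules and synaptic vesicles, rose in both subsets from immature values near background. Mature Sirpa-positive cells had -0.88 and -0.89, against -4.52 and -3.37 in immature ones. Mature Sirpa-negative cells had 0.04 and 0.20, against -5.29 and -4.04 in immature ones. In each immature group 1 of 2 arrays was not well above background. The differences were 3.06 ± 0.48 (8.33-fold, adjusted p = 0.0134) in Sirpa-positive and 4.79 ± 0.48 (27.6-fold, adjusted p = 0.00135) in Sirpa-negative cells. These exceed the differences of the other Rab genes, but not under all processing. With normexp background correction (offset 50) of spot medians, followed by quantile normalization, they were 1.23 and 1.98. These values lay below 2.05 for Rab30 in Sirpa-positive and 2.54 for Rab9 in Sirpa-negative cells. This alternative is called normexp correction below, and the part of each of its steps was not tested.

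Rab30, a Golgi Rab, also rose in both subsets, by amounts whose difference did not pass. It had 1.39 and 1.44 in mature against -1.14 and -1.10 in immature Sirpa-positive cells, a difference of 2.53 ± 0.20 (5.78-fold, adjusted p = 0.00146). In Sirpa-negative cells it had 2.40 and 2.06 against 1.10 and 1.17, a difference of 1.09 ± 0.20 (2.13-fold, adjusted p = 0.0123). The immature Sirpa-positive arrays were far below all 6 others. The second probe of Rab30 passed in Sirpa-positive cells and missed the threshold in Sirpa-negative ones (1.01, adjusted p = 0.079). Rab19, which is also placed at the Golgi, was lower in mature cells of both subsets. It had -2.12 and -2.22 in mature against -0.83 on both immature arrays of Sirpa-positive cells, a difference of -1.34 ± 0.18 (adjusted p = 0.0079) that was -0.71 with normexp correction. In Sirpa-negative cells it had -0.87 and -0.90 against 0.02 and -0.04, a difference of -0.87 ± 0.18 (adjusted p = 0.0189) that passed in 13 of 19 alternatives. Among the 11 tested genes of the endoplasmic reticulum and Golgi these 2 alone passed in a maturation comparison, 1 higher and 1 lower in each subset. Of all genes 4.35% were higher and 2.53% lower in mature Sirpa-positive cells, and 9.22% and 7.24% in mature Sirpa-negative cells.

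**Figure D2:**
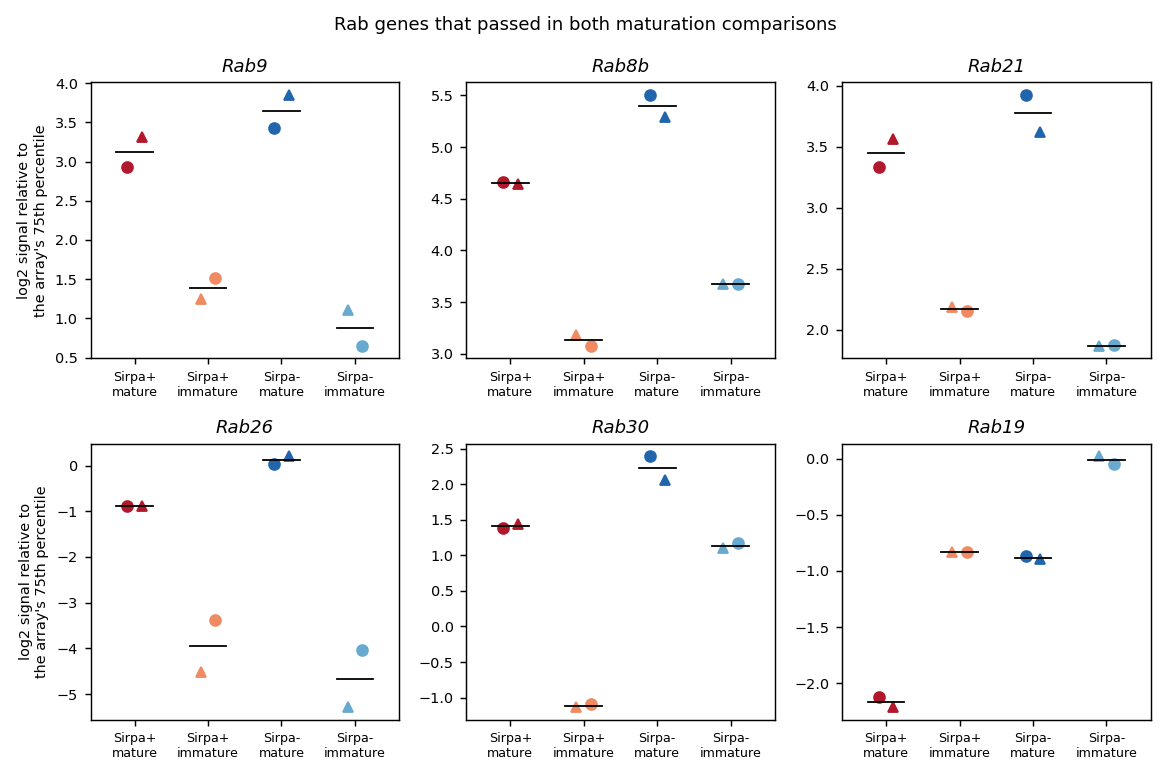
Log2 signal relative to the array's 75th percentile (vertical axes) of the 6 Rab genes that passed in both maturation comparisons, in mature and immature cells of each subset. Points are single arrays (circles, slide row 1; triangles, slide row 2) and bars are means of 2 arrays. In Rab9, Rab8b, Rab21, Rab26 and Rab30 the mature arrays of a subset lie above its immature arrays, and in Rab19 they lie below.

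Rab13, which in epithelial cells delivers junction proteins to the surface, passed in Sirpa-positive cells only. It had -1.22 and -0.76 in mature against -2.75 and -2.53 in immature Sirpa-positive cells, a difference of 1.65 ± 0.34 (adjusted p = 0.034). It passed in 12 of 19 alternatives, and not with normexp correction (0.75, adjusted p = 0.0687) or with the slide row as a block (adjusted p = 0.0596). In Sirpa-negative cells it had 0.55 and 0.09 against 0.12 and -0.75, which overlapped. The maturation effects of the 2 subsets differed by 1.01 ± 0.48, which did not pass (adjusted p = 0.685). Without array 6 of mature Sirpa-positive cells, or without array 3 or array 5 of immature Sirpa-positive cells, 2 of the 7 genes passed in each case. Rab30 was among them each time, with Rab8b in the first 2 cases and Rab26 in the third.

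Several genes passed in Sirpa-negative cells but not in Sirpa-positive ones. Rab38, a Rab of melanosomes and other lysosome-related organelles, had 0.70 and -0.35 in mature against -1.95 and -2.77 in immature Sirpa-negative cells, a difference of 2.53 ± 0.48 (5.79-fold, adjusted p = 0.0137) that was 1.55 with normexp correction. Its values in Sirpa-positive cells were 0.92 and 0.29 in mature against -0.17 and -1.02 in immature cells, a difference of 1.20 ± 0.48 that did not pass (adjusted p = 0.217). When title sets (numbers 1 to 4 against 5 to 8) entered as a block, it did pass (adjusted p = 0.0182). Mature arrays lay above immature ones in each subset, and a second probe of the gene gave 2.17 in Sirpa-negative cells without passing (adjusted p = 0.131). Rab42, a little studied member, had -1.48 and -1.13 in mature against -3.24 and -3.56 in immature Sirpa-negative cells, a difference of 2.10 ± 0.22 (4.28-fold, adjusted p = 0.00161) that was 0.81 with normexp correction. Rab20, a Rab of phagosomes and endosomes, had -1.99 and -2.50 against -3.55 and -4.40, a difference of 1.73 ± 0.34 (3.32-fold, adjusted p = 0.0151) that was 0.44 with normexp correction and did not pass there (adjusted p = 0.132). In both of these genes the immature group was above background on 1 of 2 arrays. In Sirpa-positive cells Rab20 had 0.58 and 0.38 in mature against 0.67 and 0.26 in immature cells (difference 0.01, 95% interval -0.78 to 0.81).

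The other 7 genes that rose in Sirpa-negative cells were Rab8b, Rab15, Rab23, Rab29, Rab12, Rab30 and Rab22a, with differences between 0.97 and 1.72. Rab22a, at the smallest of these, acts in early and recycling endosomes and is known from mouse dendritic cells to take part in cross-presentation, the display of engulfed antigen on MHC class I. Rab29 belongs to the subfamily of Rab32 and Rab38, Rab23 is known as a negative regulator of hedgehog signalling in mice, and Rab12 directs transferrin receptor to degradation. The second probe of Rab15, a recycling endosome Rab, gave 0.68 and did not pass (adjusted p = 0.519). Rab12 and Rab22a did not pass with arrays centred on their median. When the Sirpa-negative arrays were fitted alone, Rab12, Rab22a, Rab29 and Rab30 did not pass.

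Of the 5 genes lower in mature Sirpa-negative cells, Rab39 and Rab7b also distinguished the subsets. Rab39 (Rab39a), known to promote cross-presentation in dendritic cells, had -2.07 and -1.98 in mature against -0.75 and -0.16 in immature cells, a difference of -1.57 ± 0.42 (adjusted p = 0.0429). Its difference of -1.44 ± 0.42 in Sirpa-positive cells did not pass (adjusted p = 0.0962). Rab7b, which in human cells acts between late endosomes and the trans-Golgi network, had 4.43 and 4.42 against 5.62 and 5.46, a difference of -1.12 ± 0.24 (adjusted p = 0.0195). Neither gene's groups overlapped. Rab24, linked to autophagy, fell by 1.02 ± 0.27 on the log2 scale (adjusted p = 0.0418), with 0.09 and 0.74 against 1.38 and 1.49. Rab3a, a Rab of regulated exocytosis, fell by 0.86 ± 0.19 (adjusted p = 0.0246), with -0.84 and -0.85 against 0.03 and -0.01. In these 2 genes, too, both mature arrays lay below both immature ones. The differences of Rab39, Rab24 and Rab3a passed in 9 of 18, 9 of 19 and 10 of 19 alternatives.

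Of the 18 genes, 7 passed without array 2 of mature or without array 7 of immature Sirpa-negative cells, and 9 passed without array 4 of immature cells, of which 8 were among the 18. Rab8b, Rab9, Rab21, Rab23, Rab26 and Rab42 passed in all 3 cases. When the 4 Sirpa-negative arrays were fitted alone, 10 of the 18 passed. With the slide row as a block, 14 of the 18 passed, without Rab12, Rab22a, Rab24 and Rab3a, and 6 of the 7 genes of Sirpa-positive cells passed, without Rab13.

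The Rab genes with the best known roles in the endocytic route did not pass in a maturation comparison. Rab5a, the early endosome fusion Rab, had 1.87 and 2.04 in mature against 1.69 and 2.06 in immature Sirpa-positive cells, and 2.11 and 2.21 against 1.92 and 1.98 in Sirpa-negative cells. Rab7, which drives late endosome to lysosome traffic, had 5.87 and 6.18 against 6.13 and 6.20 in Sirpa-positive cells, and 6.39 and 6.24 against 6.63 and 6.51 in Sirpa-negative cells. Rab11a, the slow recycling Rab, had 1.86 and 1.96 against 1.39 and 1.65, and 2.43 and 2.59 against 2.57 and 2.52. The 95% intervals of these 6 differences ran from -0.41 to 0.57 and -0.28 to 0.70 for Rab5a, from -0.61 to 0.34 and -0.73 to 0.22 for Rab7, and from -0.08 to 0.86 and -0.50 to 0.43 for Rab11a, in Sirpa-positive and then Sirpa-negative cells. None of the 6 passed.

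Genes of regulated secretion and phagosome maturation that were followed throughout gave mixed values. Rab27a, which docks secretory lysosomes and in mouse dendritic cells limits phagosome acidification, had 2.13 and 2.30 in mature against 1.47 and 1.65 in immature Sirpa-positive cells (difference 0.66 ± 0.21, adjusted p = 0.134), a difference that passed in 2 of 19 alternatives. In Sirpa-negative cells it had 1.54 and 1.18 against 1.58 and 1.72. Rab27b, its close relative, had -2.94 and -3.41 against -2.61 and -2.70, and -2.57 and -2.91 against -2.83 and -2.39, and did not pass. Rab32, which works with Rab38 in lysosome-related organelles, had differences of 0.12 ± 0.24 in Sirpa-positive and -0.55 ± 0.24 in Sirpa-negative cells, and Rab43, a Golgi Rab that serves cross-presentation in mouse dendritic cells, had -0.13 ± 0.33 and -0.47 ± 0.33. None of these passed, although the second probe of Rab43 did in Sirpa-negative cells (-1.08, adjusted p = 0.025).

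Rab34, which acts in phagosome and lysosome positioning, varied greatly within groups. It had -1.56 and -2.40 in mature against -2.76 and -3.65 in immature Sirpa-positive cells, and -2.05 and -3.60 in mature against -3.70 and -6.44 in immature Sirpa-negative cells. The arrays within each group lay far apart and the last group was not above background on either array, so the difference of 2.25 ± 0.91 in Sirpa-negative cells did not pass (adjusted p = 0.146). In each group the array with the lower title number was the higher one, and once the title sets were blocked the difference passed (adjusted p = 0.0232).

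The maturation effects of the 2 subsets were compared directly, as the effect in Sirpa-positive minus the effect in Sirpa-negative cells. No Rab gene passed in limma (0 of 51), and of all genes 0% passed. At an unadjusted p below 0.05 there were 9 Rab genes and 1948 of 24152 genes (8.07%). The smallest adjusted p of a Rab gene was 0.139, for Rab30, whose effect was larger in Sirpa-positive cells by 1.44 ± 0.28. Trended and robust variances gave 1 Rab gene, Rab30. Rab20 differed by -1.72 ± 0.48 (adjusted p = 0.32), Rab42 by -1.43 ± 0.31 (adjusted p = 0.178) and Rab7b by 1.10 ± 0.33 (adjusted p = 0.39). The genes that passed in a single subset were therefore not shown to mature differently in the other.

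**Figure D3:**
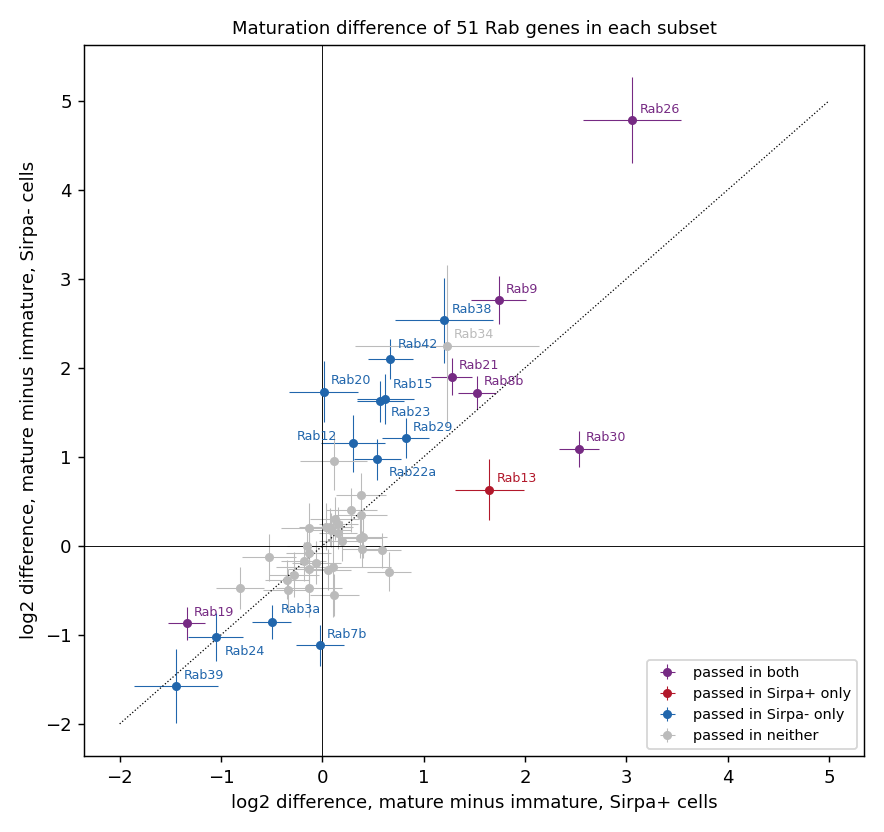
Difference between mature and immature cells (log2) of 51 Rab genes in Sirpa-positive cells (horizontal) and Sirpa-negative cells (vertical), with bars of 1 SE and a dotted line of equal differences. The 6 genes that passed in both subsets lie away from 0 on both axes, Rab20 and Rab7b lie near 0 on the horizontal axis, and Rab34 carries the widest bars.

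Transcripts listed as markers of other cells differed between mature and immature sorts, and whether they came from such cells was not tested. Of 13 thymocyte and T cell genes, 5 were higher in mature Sirpa-positive cells and 11 in mature Sirpa-negative cells, and 0 were lower. The summed linear signal of the list, as a multiple of the array's 75th percentile, was 37.9 to 41.9 in mature against 14.1 to 15.3 in immature Sirpa-positive cells, and 48.4 to 56.3 in mature against 12.7 to 12.9 in immature Sirpa-negative cells. Of 3 B cell genes, Ms4a1 was higher in mature Sirpa-positive cells and Cd79b in mature Sirpa-negative cells. The summed signal of these 3 was 7.30 on both mature arrays against 4.43 to 4.65 in immature Sirpa-positive cells. In Sirpa-negative cells it was 1.87 to 2.23 in mature against 0.83 to 1.47 in immature cells. Brightest of the 3 in Sirpa-positive cells was Cd79b, with 2.83 and 2.81 in mature against 2.19 and 2.12 in immature cells. That difference of Cd79b did not pass. Of 5 thymic epithelium genes 3 were tested, and Epcam was lower in mature Sirpa-positive cells while Krt5 was higher in mature Sirpa-negative cells. Their list summed to 3.89 to 4.48 in mature against 8.18 to 12.7 in immature Sirpa-positive cells. In Sirpa-negative cells it summed to 4.43 to 4.61 in mature against 2.16 to 2.99 in immature cells. Its brightest gene was Epcam, with 1.26 and 1.60 in mature against 2.83 and 3.52 in immature Sirpa-positive cells. The cortical gene Psmb11 was above background on 2 arrays. Of 5 macrophage genes 1 was lower in mature Sirpa-positive cells, with sums of 41.8 to 46.6 in mature against 68.8 to 84.6 in immature cells. In Sirpa-negative cells 1 macrophage gene was higher and 1 lower, with sums of 10.2 to 11.0 in mature against 12.0 to 14.0 in immature cells. All 5 plasmacytoid dendritic cell genes were above background on all 8 arrays, with sums of 104 to 137 and 1 gene lower in the mature cells of each subset. The part of RNA from these cell types in the Rab differences was not tested. In sorted bulk samples fewer cells that express a gene and less RNA of it per cell cannot be told apart.

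The subsets differed in both states in Rab20, a phagosome Rab that was high in Sirpa-positive cells, and in Rab7b and Rab39, which were high in Sirpa-negative cells. Among mature cells 1 of 51 Rab genes (1.96%) was higher in Sirpa-positive cells, where 3.37% of all genes tested were, and 6 (11.8%) were lower, where 2.1% were, which makes 7 in all (13.7%) beside 5.48% of all genes. Among immature cells 4 (7.84%) were higher, where 7.23% of all genes were, and 8 (15.7%) were lower, where 4.38% were, which makes 12 in all (23.5%) beside 11.6% of all genes. The shares higher in Sirpa-positive cells were thus close to or below those of all genes. Among the tested genes with a symbol 4.85% were higher and 2.63% lower in mature Sirpa-positive cells. In immature Sirpa-positive cells 9.7% of them were higher and 5.33% lower. The median Rab difference was -0.15 among mature and -0.08 among immature cells, against -0.07 and -0.11 over all genes. Rab20 was higher in both states (100% of the mature and 25% of the immature list), and Rab7b, Rab39, Rab32 and Rab19 were lower in both (66.7% and 50%). Here, too, the overlap was not counted over all genes. These comparisons use the same 8 arrays as the maturation comparisons.

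Rab20 had 0.58 and 0.38 in mature Sirpa-positive against -1.99 and -2.50 in mature Sirpa-negative cells, and 0.67 and 0.26 in immature Sirpa-positive against -3.55 and -4.40 in immature Sirpa-negative cells. All 4 Sirpa-positive arrays were above all 4 Sirpa-negative ones. The difference was 2.73 ± 0.34 among mature (6.61-fold, adjusted p = 0.00426) and 4.45 ± 0.34 among immature cells (21.8-fold, adjusted p = 0.000276), and it passed in all 18 alternatives of each comparison in which it was tested. With normexp correction it was 1.86 among mature and 2.30 among immature cells, where 1 of 2 immature Sirpa-negative arrays was above background.

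Rab7b ran the opposite way. Mature Sirpa-positive cells had 1.98 and 1.60, against 4.43 and 4.42 in mature Sirpa-negative cells, and immature Sirpa-positive cells had 2.02 and 1.61, against 5.62 and 5.46 in immature Sirpa-negative cells. The Sirpa-positive values did not separate by maturation. The difference was -2.63 ± 0.24 among mature (6.20-fold lower, adjusted p = 0.00102) and -3.73 ± 0.24 among immature cells (13.3-fold lower, adjusted p = 0.000117), and it passed in all 19 alternatives of each comparison.

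Rab39 differed by subset in both states. It had -4.48 and -5.61 in mature Sirpa-positive, -3.92 and -3.28 in immature Sirpa-positive, -2.07 and -1.98 in mature Sirpa-negative and -0.75 and -0.16 in immature Sirpa-negative cells. No group overlapped its neighbour in that order, although 1 of the 2 mature Sirpa-positive arrays was not well above background. The subset difference was -3.02 ± 0.42 among mature (8.09-fold lower, adjusted p = 0.0069) and -3.14 ± 0.42 among immature cells (8.84-fold lower, adjusted p = 0.00305). With normexp correction it was -0.88 and -1.60.

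The upstream regions of Rab20 and Rab39 are shown as those of the genes with large and opposite subset differences, again as the 250 bases before the RefSeq start (GRCm38.p6), on the minus strand and with GC boxes in capitals. Rab20 lies at chr8:11478641-11478890 and Rab39 at chr9:53706233-53706482.
Rab20: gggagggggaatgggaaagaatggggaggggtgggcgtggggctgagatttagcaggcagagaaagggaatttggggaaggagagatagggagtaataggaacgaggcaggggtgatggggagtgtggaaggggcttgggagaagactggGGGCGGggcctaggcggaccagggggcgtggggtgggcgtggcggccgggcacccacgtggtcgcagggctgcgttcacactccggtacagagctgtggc
Rab39: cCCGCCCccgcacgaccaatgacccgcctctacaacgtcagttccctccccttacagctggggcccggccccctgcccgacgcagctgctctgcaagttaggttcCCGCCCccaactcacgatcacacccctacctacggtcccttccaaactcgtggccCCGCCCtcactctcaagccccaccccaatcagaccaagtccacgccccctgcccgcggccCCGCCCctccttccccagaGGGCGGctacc
The Rab20 window holds 1 GC box and the Rab39 window 5, with 65.2% and 68.8% G and C. Both windows lack the NF-kB consensus, as do those of Rab8b and Rab9.

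Rab32 was lower in Sirpa-positive cells in both states. It had 1.15 and 0.89 in mature Sirpa-positive against 2.22 and 1.96 in mature Sirpa-negative cells (difference -1.07 ± 0.24, adjusted p = 0.0487). Among immature cells it had 1.13 and 0.67 against 2.72 and 2.56 (difference -1.74 ± 0.24, 3.34-fold lower, adjusted p = 0.0036). The groups did not overlap in either state. The mature difference passed in 6 of 19 alternatives and the immature one in 19 of 19. Its relative Rab38 had the other sign among immature cells, with -0.17 and -1.02 against -1.95 and -2.77. Among mature cells Rab38 had 0.92 and 0.29 against 0.70 and -0.35, which overlapped. That difference of 0.43 did not pass and ran from -0.09 to 0.96 over the alternatives. The immature difference of 1.76 ± 0.48 just missed the threshold (adjusted p = 0.06) and passed in 6 of 19 alternatives.

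Of the 11 tested genes of the endoplasmic reticulum and Golgi, 3 were lower and 1 was higher in immature Sirpa-positive cells, and 7 did not pass. Of all genes 4.38% were lower and 7.23% higher in this comparison. Rab30 had -1.14 and -1.10 in immature Sirpa-positive against 1.10 and 1.17 in immature Sirpa-negative cells, a difference of -2.25 ± 0.20 (4.76-fold lower, adjusted p = 0.000515). Rab43 had 3.56 and 3.28 against 4.27 and 5.24, a difference of -1.33 ± 0.33 (adjusted p = 0.0405) that passed in 7 of 19 alternatives, and its second probe gave -1.74 (adjusted p = 0.004). Among mature cells Rab43 had 3.24 and 3.34 against 4.40 and 4.17, which did not overlap, a difference of -0.99 ± 0.33 that did not pass (adjusted p = 0.166). Rab19 had -0.83 on both immature Sirpa-positive arrays against 0.02 and -0.04 (difference -0.82 ± 0.18, adjusted p = 0.028). Among mature cells it had -2.12 and -2.22 against -0.87 and -0.90 (difference -1.29 ± 0.18, adjusted p = 0.0076). The higher one was Rab6b, a Golgi Rab best known from neurons, with -0.64 and -1.57 in immature Sirpa-positive against -3.25 and -2.77 in immature Sirpa-negative cells (difference 1.90 ± 0.33, adjusted p = 0.00973). With normexp correction it was 0.91, and 1 of 2 immature Sirpa-negative arrays was above background.

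Recycling and surface Rab genes moved in both directions among immature cells. Rab13 had -2.75 and -2.53 in immature Sirpa-positive against 0.12 and -0.75 in immature Sirpa-negative cells, a difference of -2.33 ± 0.34 (5.02-fold lower, adjusted p = 0.0049) that passed in 19 of 19 alternatives. Rab11a had 1.39 and 1.65 against 2.57 and 2.52 (difference -1.02 ± 0.20, adjusted p = 0.0164), and among mature cells 1.86 and 1.96 against 2.43 and 2.59 (difference -0.60 ± 0.20, adjusted p = 0.169). In both states the Rab11a arrays did not overlap. Rab15 had -1.82 and -2.21 against -3.97 and -3.49 (difference 1.71 ± 0.28, adjusted p = 0.00764), and Rab4a, the fast recycling Rab, had -1.44 and -1.26 against -2.64 and -2.89 (difference 1.41 ± 0.28, adjusted p = 0.0181). The second probes of Rab15 and Rab4a gave 1.25 and 0.33 and did not pass. For Rab15 1 of 2 immature Sirpa-negative arrays was above background. With normexp correction the differences were -1.25 for Rab13, 0.57 for Rab15 and 0.65 for Rab4a, and that of Rab4a passed in 13 of 19 alternatives.

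**Figure D4:**
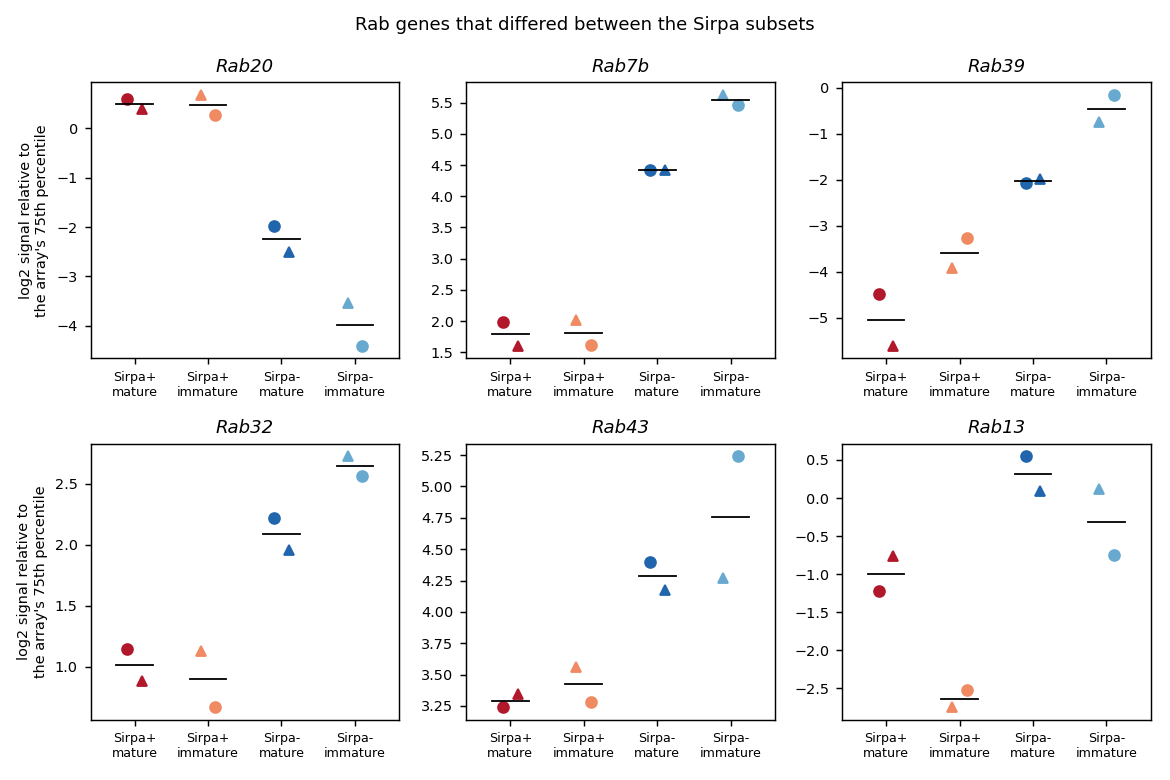
Log2 signal relative to the array's 75th percentile (vertical axes) of 6 Rab genes that passed in a subset comparison, in the 4 groups. Points are single arrays (circles, slide row 1; triangles, slide row 2) and bars are means of 2 arrays. Rab20 is high on the 4 Sirpa-positive arrays, Rab7b, Rab39, Rab32 and Rab43 are high on the 4 Sirpa-negative arrays, and Rab13 is lowest in immature Sirpa-positive cells.

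Among mature cells 2 further genes were lower in Sirpa-positive cells. Rab42 had -2.64 and -2.55 against -1.48 and -1.13 in Sirpa-negative cells (difference -1.30 ± 0.22, adjusted p = 0.0172, -0.62 with normexp correction), and Rab23 had -0.72 and -0.59 against 0.53 and 0.29 (difference -1.06 ± 0.23, adjusted p = 0.0438). Rab23 passed in 6 of 19 alternatives, and its second probe gave -0.75 (adjusted p = 0.391). Rab27a was higher in mature Sirpa-positive cells by 0.86 ± 0.21 without passing (2.13 and 2.30 against 1.54 and 1.18, adjusted p = 0.0723), and it passed in 4 of 19 alternatives. Rab5a, Rab7, Rab27b and Rab34 did not pass in a subset comparison.

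Of the 7 genes that passed among mature cells, 4 passed without array 1 of mature Sirpa-positive cells, and 3 passed without array 6 of those cells or without array 8 of mature Sirpa-negative cells. Among immature cells 6 of 12 passed without array 3 of immature Sirpa-positive cells, namely Rab20, Rab7b, Rab39, Rab13, Rab30 and Rab32. With the slide row as a block, 5 of 7 passed among mature cells, without Rab23 and Rab32, and 10 of 12 among immature cells, without Rab19 and Rab43. With the title sets blocked, Rab38 also passed among immature cells (adjusted p = 0.00242). Of the 5 macrophage genes (Mertk, Fcgr1, Adgre1, Marco and Csf1r), 4 were higher in mature and 5 in immature Sirpa-positive cells. Their summed signal was 41.8 to 46.6 in mature Sirpa-positive against 10.2 to 11.0 in mature Sirpa-negative cells, and 68.8 to 84.6 in immature Sirpa-positive against 12.0 to 14.0 in immature Sirpa-negative cells. Among mature cells 0 of 3 thymic epithelium genes passed, and among immature cells 2 were higher in Sirpa-positive cells. Of the plasmacytoid genes 1 was higher among mature cells, and 2 were higher and 1 lower among immature cells. Of the B cell genes Cd79b was higher in both states and Ms4a1 lower among immature cells, and of the T lineage genes 2 were lower among mature cells and 1 was higher among immature cells. The part of these cell types in the Rab differences was not tested.

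The partners of the Rab cycle were read from lists of 6 prenylation and recycling factors, 31 exchange factors, 35 GTPase-activating proteins and 43 effectors. Of the 6 prenylation and recycling factors reported here, 0 passed in limma in any of the 4 comparisons of groups. At an unadjusted p below 0.05 there were 2 in Sirpa-positive and 3 in Sirpa-negative maturation, and 0 in the mature and 1 in the immature subset comparison. Shares of all genes at that threshold were not counted for these comparisons.

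Among 29 tested exchange factors 2 rose (6.9%) and 2 fell (6.9%) with maturation in Sirpa-positive cells, where 4.35% of all genes rose and 2.53% fell. In Sirpa-negative cells 7 rose (24.1%) and 4 fell (13.8%), where 9.22% and 7.24% of all genes did. Between subsets 2 were higher (6.9%) and 1 lower (3.45%) in mature Sirpa-positive cells, where 3.37% and 2.1% of all genes were. In immature Sirpa-positive cells 4 were higher (13.8%) and 3 lower (10.3%), where 7.23% and 4.38% of all genes were. The shares among genes with a symbol, given above, were larger than those of all genes in each comparison and direction. Rab3il1, an exchange factor for Rab8, had 2.00 and 1.91 in mature Sirpa-positive against -2.87 and -2.57 in mature Sirpa-negative cells, a 25.5-fold difference (adjusted p = 8.68e-05). It was lower in mature than in immature Sirpa-negative cells by 2.80-fold (adjusted p = 0.00423). Rin2, an exchange factor for Rab5, had 4.16 and 3.90 in immature Sirpa-positive against 0.36 and 0.06 in immature Sirpa-negative cells, a 14.1-fold difference (adjusted p = 9.74e-05). Dennd2d had -0.38 and -0.24 against 1.65 on both arrays and was 3.89-fold lower in immature Sirpa-positive cells (adjusted p = 0.0031).

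Among 32 tested GTPase-activating proteins 3 rose (9.38%) and 1 fell (3.12%) with maturation in Sirpa-positive cells, and 5 rose (15.6%) and 2 fell (6.25%) in Sirpa-negative cells. Relative to Sirpa-negative cells, 2 were higher (6.25%) and 1 lower (3.12%) in mature Sirpa-positive cells, and 4 were higher (12.5%) and 5 lower (15.6%) in immature ones. The shares of all genes are those given for the exchange factors, and the 6.25% that fell in Sirpa-negative cells lies below the 7.24% of all genes. Rabgap1l had 1.52 and 1.49 in mature against -1.62 and -1.90 in immature Sirpa-positive cells, a 9.62-fold rise (adjusted p = 0.00104). Its immature Sirpa-positive values were 5.21-fold lower than the 0.69 and 0.55 of immature Sirpa-negative cells (adjusted p = 0.00072). Tbc1d16, which acts on Rab4a, was 8.67-fold higher in immature Sirpa-positive cells, with 1.60 and 1.92 against -1.32 and -1.39 (adjusted p = 0.000185). Tbc1d10c was 3.73-fold lower in the same comparison (adjusted p = 0.00658).

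Among 36 tested effectors 4 rose (11.1%) and 0 fell with maturation in Sirpa-positive cells, where 4.35% of all genes rose and 2.53% fell, and 7 rose (19.4%) and 1 fell (2.78%) in Sirpa-negative cells, where 9.22% and 7.24% did. Relative to Sirpa-negative cells, 3 were higher (8.33%) and 1 lower (2.78%) in mature Sirpa-positive cells, where 3.37% and 2.1% of all genes were. In immature Sirpa-positive cells 6 were higher (16.7%) and 3 lower (8.33%), where 7.23% and 4.38% were. Rab11fip5, a binding partner of Rab11, had 2.42 and 2.17 in immature Sirpa-positive against -1.44 and -1.46 in immature Sirpa-negative cells, a 13.4-fold difference (adjusted p = 0.000125). Rilpl1, which binds Rab proteins phosphorylated by Lrrk2, had 1.31 and 1.30 against -2.32 and -2.78, a 14.4-fold difference (adjusted p = 0.000257). Lrrk2 itself, the kinase that phosphorylates a group of Rab proteins and is recruited by Rab29, had 0.27 and 0.29 against 2.62 and 2.70 and was 5.22-fold lower (adjusted p = 0.000477). Rab11fip1 was 1.89-fold lower (adjusted p = 0.0353). The groups did not overlap in any of these genes, but the genes were chosen by their small p, so this adds no support.

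Of the Rab genes that were not tested, Rab33a and Rab39b were not well above background on any array. Rab40b was above it on 1 array, Rab37 and Rab9b on 2, and Rab25, a recycling Rab of epithelia, on 4 arrays, 1 of each group. Among the 27 tested genes that passed in no comparison, differences lay between -0.81 and 2.25, and 26 of these genes stayed within 1 log2 unit in all 4 comparisons, the exception being Rab34. Those genes include Rab1a and Rab1b of early secretion, Rab5b and Rab5c of early endosomes, and Rab10, Rab11b, Rab14 and Rab35 of recycling and surface delivery.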

How the data were processed

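Spot intensities were read from scanner files, in which, per the file headers, Feature Extraction 10.7.3.1 had subtracted background and detrended each array spatially, while the submitters' processing notes give version 10.5. The deposited value table of the authors holds log2 values whose 8 sorted columns differ by at most 0.126, as after quantile normalization. The submitters' processing notes name limma without settings.

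Each processed signal was put on the log2 scale relative to the 75th percentile of its array, with spots marked as outliers left out and repeated spots averaged. Probes entered if both arrays of any group placed them well above background (33697 probes). Accessions were named through RefSeq (GRCm38.p6), and the kept probe with the highest mean stood for a gene. RefSeq also lists Rab36 and Rab44, for which no probe was matched and which are not analysed here.

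The 4 group means were fitted over all 8 arrays in limma 3.58.1 under R 4.3.3, with 4 residual degrees of freedom and 3.26 prior ones. Two-sided p-values were adjusted by the Benjamini-Hochberg method over the 24152 genes or accessions of a comparison, and an adjusted p below 0.05 passed. The model was tested on simulated data. The arrays lay on 1 slide with 1 scan time, and their number limits the precision. The spot mean named in the plan for normexp is not a column of the files, so the alternative used the spot median.

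Full statistics were given, per comparison, for the 6 largest rises and 6 largest falls that passed, and throughout for Rab5a, Rab7, Rab11a, Rab20, Rab27a, Rab27b, Rab32, Rab34, Rab38 and Rab43. Per partner list at most 2 risen and 2 fallen genes with the smallest p were named. Rab39 in Sirpa-positive maturation, Rab13 in Sirpa-negative maturation and Rab8a were added after their values were seen. Also outside the rule, Rab8b and Rab30 in Sirpa-negative maturation and Rab19 in the immature subset comparison were given in full. So were the differences of maturation effects of Rab7b, Rab13, Rab30 and Rab42, with SE and adjusted p. A few genes of the partner and marker lists are not reported here, and the lists' counts and sums leave them out. The members, the role and partner lists and the markers were chosen with earlier results of these data known.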

Additional observations from a re-analysis of the deposited data

How the results depend on the processing

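Alternatives were read gene by gene for the 6 largest rises and 6 largest falls that passed per comparison and for the genes followed throughout. None of these differences that passed changed sign in any of its alternatives, of which there were up to 19. Partners and the other named differences were not followed gene by gene. The counts of Rab genes that passed moved by more than 1.5 times as follows. With no filter on dim probes 3 genes passed in Sirpa-positive maturation, 7 in Sirpa-negative maturation and 4 in the mature subset comparison. In the last of these normexp correction gave 11, trended and robust variances 11 and the compared arrays alone 3, and the compared arrays alone gave 10 in Sirpa-negative maturation. Trended and robust variances gave 1 gene, Rab30, in the difference of maturation effects. Leaving out an array gave 2 to 8 genes in Sirpa-positive maturation, 7 to 16 in Sirpa-negative maturation, 3 to 6 in the mature and 6 to 11 in the immature subset comparison, and 0 in the difference of maturation effects, with the lone array of a group assumed to vary like the others. Fits without an array use fewer arrays, and more genes enter without the filter on dim probes. The shares of all genes that passed in these fits are not given, here or above, so the counts describe the Rab genes alone. The causes of the changed counts were not tested. Centring arrays on their median moved the median of all genes in the 2 maturation comparisons to -0.07 and -0.12, against 0.03 and -0.01. It reversed none of the differences that passed and were followed gene by gene. The groups share no replicate numbers in the titles, so no block by replicate number was fitted. The slide row and the set of title numbers, each with 1 array of every group, were fitted as blocks instead. With the slide row 6, 14, 5 and 10 genes passed in Sirpa-positive maturation, Sirpa-negative maturation and the mature and immature subset comparisons, and with the title set 9, 18, 7 and 13 did. Dim genes such as Rab26, Rab39, Rab20 and Rab42 are limited by signal near background. Their differences were smaller in the normexp alternative, which also used spot medians and quantile normalization.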
